A study of Mus musculus with 8 samples.

Results

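The Hedgehog pathway genes described here are Gli1, Gli2, Gli3, Ptch1, Smo, Hhip, Gas1, Boc and Sufu, 9 of the 55471 genes in the count table. They were chosen by symbol, and each symbol stood in a single row. The cells were SV-LECs, lymphatic endothelial cells of mouse mesenteric adventitia made immortal with SV40, and they received either no treatment or TGFβ1 at 10 ng/ml during 72 h. Both groups carry the SV40 immortalization, and 4 libraries per group were sequenced from poly(A) RNA. The study describes the 4 samples of a group as technical replicates of 1 cell line, so SDs and p-values cover the spread between such samples and not that between independent experiments.

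Hedgehog ligands signal through the removal of a brake. Without ligand, the receptor PTCH1 keeps the membrane protein SMO inactive, and SUFU holds the GLI transcription factors, of which GLI3 is processed into a repressor. Ligand bound to PTCH1 together with the co-receptors GAS1, BOC and CDON frees SMO, which enters the primary cilium and lets GLI2 act as an activator. Gli1, Ptch1 and Hhip are themselves transcribed in response, so their transcripts serve as readouts of the pathway, and PTCH1 and HHIP restrain it in turn. TGFβ is known to induce Gli2 and Gli1 in fibroblasts.

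Total counts per library lay between 18952504 and 26386941, and within groups every pair of libraries differed beyond counting noise (chi-square per degree of freedom 2.37 to 7.84). Of 8 genes known to respond to TGFβ, 7 were tested and all 7 were higher in treated libraries, with log2 fold changes between 0.63 and 2.63. The gene not tested, Tgfbi, had at most 3 reads in any library. Among all 13818 genes tested 37.6% were called higher. Of 6 markers of lymphatic endothelium 3 were tested, 2 of them higher and 1 lower. Levels are in CPM (counts per 1000000 reads of normalized library size). Mean Flt4 went from 21.6 to 29.3 CPM, Nrp2 from 66.4 to 88.3 CPM and Pdpn from 342 to 313 CPM. Ccl21a had no read, and Prox1 and Lyve1 had at most 3 reads in any library. The 6 summed to between 412 and 448 CPM in untreated and between 426 and 440 CPM in treated libraries. Of 8 markers of all endothelium 3 were tested and 2 were higher. The summed CPM of the 8 went from between 70.2 and 78.3 to between 162 and 170. Most of this sum was Eng alone, with means of 62.0 CPM in untreated and 143 CPM in treated libraries. Kdr went from 11.6 to 22.1 CPM, and Tek was not called (FDR = 0.608 from edgeR). Tie1 and Erg had no read, and Pecam1 and Cdh5 had at most 5 in any library. The label of the line is therefore met only in part by its markers. Leukocyte markers summed to at most 0.148 CPM in any library. The 8 mesenchymal and mural markers summed to between 605 and 642 CPM in untreated and between 273 and 300.4 CPM in treated libraries, with 3 of the 6 tested higher, 3 lower, Rgs5 at 0 in the untreated libraries and none at 0 in all 8. Mean Dcn fell from 312 to 83.0 CPM, Pdgfra from 160 to 57.8 and Thy1 from 89.2 to 42.4. The less abundant Pdgfrb rose from 44.7 to 69.3 CPM, Cspg4 from 12.8 to 23.0 and Des from 1.69 to 7.15. The sum thus does not stand for all of these markers. The 5 epithelial markers summed to between 34.2 and 40.7 CPM in untreated and between 38.0 and 45.1 CPM in treated libraries, with 2 of the 3 tested higher, both of which passed the filter on low counts only with their treated libraries. Most of this sum was Krt14, which was not called, with means of 37.1 CPM in untreated and 38.8 CPM in treated libraries. What part these markers have in the values below was not tested. In bulk RNA, fewer cells of a type and less RNA per cell cannot be told apart.

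Exposure to TGFβ1 lowered Smo, Gas1 and Gli2, lowered Ptch1 and Sufu by less, and was accompanied by a small number of Gli1 reads where untreated cells had almost none. Gli3 and Boc were called slightly higher, but both calls were lost under several other settings, and Hhip stayed without measurable expression. Of the 9 genes 8 passed the filter on low counts, and with a false discovery rate (FDR) below 0.05 in the likelihood ratio test of edgeR 3 of them were higher and 5 were lower. Among all 13818 genes tested 75.6% were called in either direction, 37.6% higher and 38.0% lower, so that the number of pathway genes called is no result in itself. Their log2 fold changes had a median of -0.24, against -0.01 over all genes tested. Gli1 passed the filter through its treated libraries alone and therefore had to differ, so these counts cannot be read as support for a change of the pathway. In 7 of the 8 genes the groups did not overlap, with 2 higher and 5 lower, and the same held for 69.8% of all genes tested (34.7% higher and 35.1% lower).

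**Figure D1:**
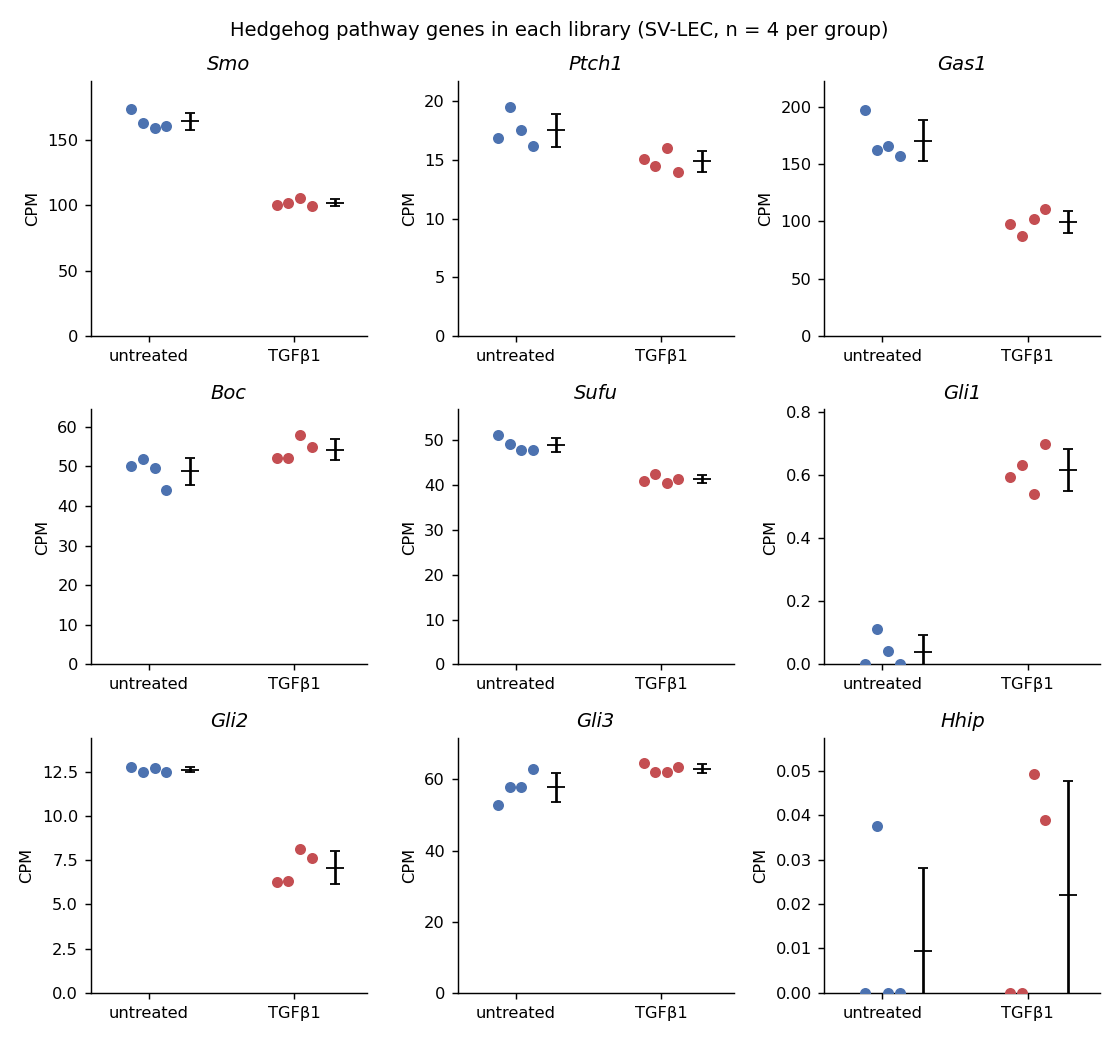
Normalized level (CPM, linear axis from 0) of each Hedgehog pathway gene in the 4 untreated (blue) and the 4 TGFβ1-treated (red) libraries, with the mean and SD beside them in black. Smo, Gas1 and Gli2 lay clearly lower in all treated libraries, Gli1 was at 0.541 to 0.699 CPM in treated and at most 0.113 CPM in untreated libraries, and the Gli3 groups overlapped.

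Smo, Gas1 and Gli2 fell most clearly, and the 250 bases before their transcription start in RefSeq (GRCm38.p6) are shown here to give their sequence context. The interval is chr6:29735247-29735496 on the plus strand for Smo, chr13:60177536-60177785 on the minus strand for Gas1 and chr1:119053620-119053869 on the minus strand for Gli2. Capitals mark the letters CCACCC, the core of the site bound by GLI proteins, and CAGAC, the box bound by SMAD proteins, on either strand (GGGTGG and GTCTG when read on the reverse strand).
Smo: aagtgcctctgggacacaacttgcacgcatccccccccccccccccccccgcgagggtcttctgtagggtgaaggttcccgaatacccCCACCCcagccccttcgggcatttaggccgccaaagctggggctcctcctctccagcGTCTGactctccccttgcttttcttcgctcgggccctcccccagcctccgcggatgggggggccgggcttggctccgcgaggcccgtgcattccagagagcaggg
Gas1: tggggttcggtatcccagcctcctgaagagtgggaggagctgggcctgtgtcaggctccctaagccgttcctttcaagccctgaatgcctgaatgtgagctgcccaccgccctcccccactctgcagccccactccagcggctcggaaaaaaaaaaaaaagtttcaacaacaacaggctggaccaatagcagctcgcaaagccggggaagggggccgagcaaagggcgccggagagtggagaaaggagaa
Gli2: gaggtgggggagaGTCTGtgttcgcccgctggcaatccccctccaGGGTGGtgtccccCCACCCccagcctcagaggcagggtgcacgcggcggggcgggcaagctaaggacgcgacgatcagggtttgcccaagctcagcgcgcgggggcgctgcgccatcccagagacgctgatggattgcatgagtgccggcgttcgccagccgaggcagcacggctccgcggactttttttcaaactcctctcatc

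Smo held a GLI core 162 bases and a SMAD box 105 bases before the start. Gli2 held GLI cores 205 and 192 bases and a SMAD box 237 bases before it, and Gas1 held neither. The core was present in 28.1% and the box in 42.2% of all 32851 promoter windows of this length, so such matches are frequent. The full site GACCACCCA, which contains the core, was found in 0.225% of the windows and in none of the 7 pathway genes with an entry. Ptch1 held 2 SMAD boxes and no core, Gli3 had 1 of each, Hhip had 1 core, and Sufu had neither. The Ptch1 window, chr13:63565736-63565985, lies inside the gene, which has 10 transcripts and begins at 63573598 on the minus strand in GENCODE M21. The bases before that outer start were not scanned, so a GLI core there is not excluded. Gli1 and Boc had no entry.

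Smo (ENSMUSG00000001761) encodes the membrane protein that passes the signal into the cell. It lies on the plus strand of chromosome 6 of GRCm38, from 29735503 to 29761365. In the untreated libraries its level was 174, 163, 159 and 161 CPM, scaled to the normalized library size. In the treated libraries it was 101, 102, 106 and 99.4 CPM. All treated libraries lay well below all untreated ones, and the means were 164 ± 6.52 and 102 ± 2.67 CPM (SD, n = 4 libraries per group). The log2 fold change was -0.69 with a standard error of 0.0444, which leaves 62.1% of the untreated level (FDR = 6.45e-53 from edgeR). A small part of its sequence, 0.757% of all stretches as long as a read, also occurs in Gm4066 on the same strand, and no other pathway gene shared such a stretch with a gene on its own strand in GENCODE M21.

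Ptch1 (ENSMUSG00000021466), the receptor that holds SMO inactive and a target of the GLI factors, lies on the minus strand of chromosome 13, from 63508328 to 63573598. Its level was 16.9, 19.5, 17.5 and 16.2 CPM in untreated libraries. After TGFβ1 it was 15.1, 14.5, 16.0 and 13.9 CPM. The groups lay next to each other without overlap, with 16.2 as the lowest untreated and 16.0 as the highest treated value. The log2 fold change of -0.24 (standard error 0.0822) left 84.6% of the untreated level (FDR = 0.00491 from edgeR). It remained significant in all 16 alternative fits, with FDRs of up to 0.041 when single libraries were left out. The fit with a prior count of 2 leaves the test itself unchanged and could not lose the call. The gap to the neighbouring group was thus far smaller for Ptch1 than for Smo.

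Gas1 (ENSMUSG00000052957) encodes a membrane-anchored co-receptor that binds Hedgehog ligands, and its name comes from its expression in growth-arrested cells. It lies on the minus strand of chromosome 13, from 60174405 to 60177365. Untreated libraries had 197, 162, 165 and 157 CPM. Treated libraries had 98.1, 87.5, 102 and 111 CPM. The lowest untreated library stood well above the highest treated library, and the means were 170 ± 18.0 and 99.7 ± 9.72 CPM (SD, n = 4 per group). Gas1 fell by 0.77 on the log2 scale (standard error 0.0784, FDR = 3.98e-22 from edgeR), to 58.5% of the untreated level. Gm48488, a gene on the opposite strand, holds 15.4% of the read-long stretches of Gas1 and had 3 to 6 reads per library.

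Boc (ENSMUSG00000022687), a further co-receptor with immunoglobulin and fibronectin repeats, lies on the minus strand of chromosome 16, from 44485049 to 44558897. Its level was 50.1, 51.8, 49.5 and 43.9 CPM in untreated libraries. After treatment it was 52.1, 52.0, 57.8 and 55.0 CPM. The treated libraries lay above the untreated ones, but 51.8 and 52.0 CPM nearly touched. Its estimate, a log2 fold change of 0.15 with a standard error of 0.0612, passed the threshold in edgeR (FDR = 0.019). It did not pass with total counts as the scale (log2 fold change 0.084, FDR = 0.199), without the filter on low counts (0.12, FDR = 0.135), without untreated library 4 (0.10, FDR = 0.0888) or without treated library 3 (0.12, FDR = 0.0952). The rise of Boc was therefore small and uncertain, while the fall of Gas1 passed in every fit.

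Cdon, the closest relative of Boc among the co-receptors, fell from 125 ± 7.66 to 71.3 ± 1.29 CPM (SD, n = 4 per group), or by 0.81 on the log2 scale (edgeR, FDR = 9.89e-55). The treated and untreated libraries of Cdon did not overlap. The 3 co-receptors thus did not move alike, with Gas1 and Cdon lower and Boc slightly higher.

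Sufu (ENSMUSG00000025231) encodes the cytoplasmic inhibitor that binds GLI proteins. It lies on the plus strand of chromosome 19, from 46396896 to 46488804. Untreated libraries had 51.1, 49.1, 47.7 and 47.8 CPM. Treated libraries had 40.9, 42.5, 40.3 and 41.3 CPM. The groups lay apart with a narrow spread in each, and the log2 fold change was -0.25 (standard error 0.04996, FDR = 1.85e-06 from edgeR), which leaves 84.4% of the untreated level.

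Gli2 (ENSMUSG00000048402), which encodes the main activator among the GLI factors, lies on the minus strand of chromosome 1, from 118834132 to 119053619. Its level was 12.8, 12.5, 12.7 and 12.5 CPM in untreated libraries. In treated libraries it was 6.27, 6.33, 8.12 and 7.61 CPM. The untreated libraries were nearly alike, and every treated library was far below them. Gli2 fell by 0.83 on the log2 scale (standard error 0.0974, FDR = 4.44e-17 from edgeR), to 56.4% of the untreated level. Among the pathway genes tested this was the lowest estimate, although the intervals of Gli2 (-1.02 to -0.64), Gas1 (-0.93 to -0.62) and Smo (-0.78 to -0.60) overlapped. The estimates of these 3 genes stood at the 9.13, 10.1 and 12.2 percentile of all log2 fold changes, so changes of this size were common in these cells.

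Gli3 (ENSMUSG00000021318), which encodes the factor that is processed into the main repressor, lies on the plus strand of chromosome 13, from 15463235 to 15730026. Untreated libraries had 52.7, 57.7, 57.8 and 62.8 CPM. Treated libraries had 64.5, 62.1, 62.0 and 63.3 CPM. Untreated library 4 lay within the range of the treated libraries, so the groups overlapped. The log2 fold change was 0.13 (standard error 0.0557), with an FDR of 0.0338 in edgeR and of 0.0332 in its quasi-likelihood test. The call was lost in 6 of the 8 fits that left out a library, those without untreated library 1, 2 or 3 or treated library 1, 3 or 4 (log2 fold change 0.079 to 0.13, highest FDR = 0.168). It was also lost with total counts as the scale (log2 fold change 0.057, FDR = 0.351) and without the filter on low counts (0.095, FDR = 0.173). A change of Gli3 was thus not firmly shown, and the 95% interval of the estimate, 0.02 to 0.23, bounds it well below the changes of Gli2, Smo and Gas1 in size. Gm6556, which overlaps Gli3 on the opposite strand, had 9 to 18 reads per library.

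Gli1 (ENSMUSG00000025407), a GLI factor that is a transcriptional target of the pathway and whose level is widely read as a sign of its activity, lies on the minus strand of chromosome 10, from 127329882 to 127341974. The untreated libraries held 0, 3, 1 and 0 reads of Gli1. The treated libraries held 11, 13, 11 and 18 reads, or 0.595, 0.633, 0.541 and 0.699 CPM. Every treated library was above every untreated library, but all counts were low. Over the 4 libraries of each group 53 reads stood against 4, a ratio of 14.0 by normalized library size, with an exact 95% interval of 5.16 to 53.3 that covers counting error only. With each untreated library set to a floor of 3 counts the ratio was 4.57. The fitted log2 fold change was 3.65 with a standard error of 0.752 (edgeR, FDR = 2.22e-12), and its size depended on the settings. It was 2.39 with a prior count of 2 and 4.86 without untreated library 2, which held 3 of the 4 reads. Because Gli1 passed the filter on low counts through its treated libraries alone, its call in the filtered fits was tied to the filter. In the fit of all genes without that filter the log2 fold change was 3.62 (edgeR, FDR = 3.88e-12), and requiring 1 CPM in 4 or more libraries left Gli1 out. Gm47200 and Arhgap9 overlap exons of Gli1 on the opposite strand, the former with no read and the latter with 5 to 19 reads per library, and whether strand was used in counting is not given in the sources used here.

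Hhip (ENSMUSG00000064325) encodes a membrane protein that binds and sequesters Hedgehog ligands and is a pathway target. It lies on the minus strand of chromosome 8, from 79965851 to 80058006. Untreated libraries had 0, 1, 0 and 0 reads, and treated libraries had 0, 0, 1 and 1. All 8 libraries were below the floor of 3 counts, which corresponds to between 0.113 and 0.162 CPM, so that a difference was not detectable at this depth and no fold is given. Of the 3 readout genes, Gli1 was therefore higher, Ptch1 lower and Hhip below detection.

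**Figure D2:**
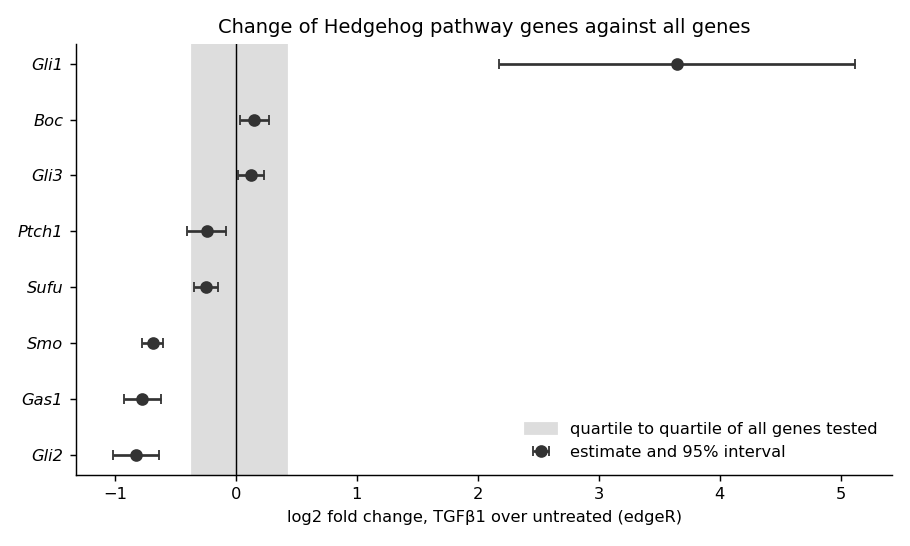
Log2 fold change (TGFβ1 over untreated, edgeR) of the 8 pathway genes that were tested, with 95% intervals, against the range between the quartiles of all 13818 genes tested (grey band, -0.36 to 0.42). Gli2, Gas1 and Smo lay below the band, Gli1 above it with a wide interval of 2.17 to 5.12, and the other 4 genes within it.

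Because GLI and co-receptor genes differ in transcript length, levels were compared between genes as CPM per kilobase of the longest transcript. In untreated cells Gas1 (57.6 ± 6.07) and Smo (43.4 ± 1.73) stood at the top, followed by Boc (11.0 ± 0.766), Sufu (10.8 ± 0.355), Gli3 (7.07 ± 0.506), Gli2 (1.90 ± 0.0219) and Ptch1 (1.69 ± 0.136), each as mean and SD of n = 4. Gli1 (0.00963) and Hhip (0.00104) were at the bottom. The ranges of Boc and Sufu overlapped, as did those of Gli1 and Hhip, whereas all other neighbours in the order lay apart. In treated cells Gas1 (33.7 ± 3.28) and Smo (27.0 ± 0.708) were still the highest per kilobase, and no neighbours overlapped. By this length Ptch1 (1.43 ± 0.0846) then stood above Gli2 (1.07 ± 0.139), the reverse of their order in untreated cells. The longest transcripts of Ptch1 and Gli2 have 10383 and 6637 bases, and their unions of exons 14185 and 6869. By the union Ptch1 and Gli2 thus lay closer together in treated cells, and their ranges there overlapped. Treated libraries held 13.93 to 15.99 CPM of Ptch1 and 6.275 to 8.119 CPM of Gli2 before division by length. By the union their order in treated cells is therefore not settled. With the union of exons as length, Gli3 (6.57) stood above Sufu (5.37) in treated cells. Per length, transcripts of Smo thus outnumbered those of Ptch1 in both groups, and Gli3 was the most abundant GLI transcript in both.

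**Figure D3:**
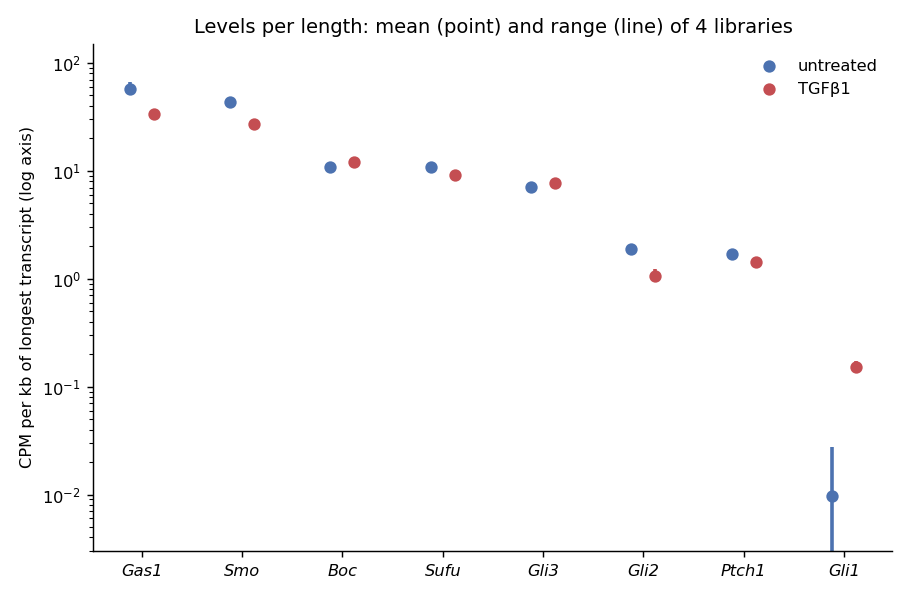
Level per length (CPM per kilobase of the longest transcript, log axis) of 8 pathway genes in untreated (blue) and TGFβ1-treated (red) libraries, as mean and range of 4 libraries, with the range of untreated Gli1 running to 0 and Hhip left out. Gas1 fell from 57.6 to 33.7 and Smo from 43.4 to 27.0, while Boc, Sufu and Gli3 stayed between 7.07 and 12.2.

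Among the 3 GLI genes, Gli3 made up 78.7% ± 1.36 of the summed level per kilobase in untreated and 86.4% ± 1.43 in treated libraries (SD, n = 4 per group). The share of Gli2 was 21.2% ± 1.37 and 11.9% ± 1.47. Gli1 held 0.107% ± 0.146 and 1.70% ± 0.179. The summed level was 8.98 ± 0.488 and 8.93 ± 0.157 CPM per kilobase, so the makeup of the GLI transcripts shifted while their sum differed by less than the spread between libraries.

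Ratios between genes within a library do not depend on how libraries are scaled. Per 100 reads of Gli2, untreated libraries held between 413 and 504 reads of Gli3, and treated libraries between 764 and 1028. Per 100 reads of Smo, there were between 9.71 and 11.9 reads of Ptch1 in untreated and between 14.0 and 15.2 in treated libraries. For Sufu the numbers per 100 reads of Smo were 29.4 to 30.1 and 38.2 to 41.7. Per 100 reads of Boc, reads of Gas1 went from between 313 and 393 down to between 168 and 202. In each of these ratios the groups lay apart, which means that the genes of each pair changed unequally. How often ratios of other gene pairs lie apart was not computed. Among single genes tested the groups did not overlap in 69.8%, so the number of ratios lying apart is no result in itself. Ratios that share a gene are also not independent of each other.

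On the log2 scale, after 0.5 was added to each count, the mean ratio of Gli3 to Gli2 rose by 0.97 (standard error 0.116), that of Ptch1 to Smo by 0.46 (standard error 0.0727) and that of Sufu to Smo by 0.44 (standard error 0.0297). The ratio of Gas1 to Boc fell by 0.93 (standard error 0.0902). Gli1 rose against Gli2 by 4.58 and against Gli3 by 3.61, but these sizes rest on 0 to 3 untreated reads and were 3.98 and 3.01 with 1 added to each count. No filter on low counts entered the ratios. Each of the 6 ratios had p = 0.0286 in an exact two-sided permutation test, also after Benjamini-Hochberg adjustment over the 6, which is the smallest p that 4 libraries against 4 allow. Any ratio whose groups lie apart returns this p, so it adds nothing to the separation itself. Adjustment over 6 equal values cannot change them, and the pairs were chosen with earlier results of these data known.

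**Figure D4:**
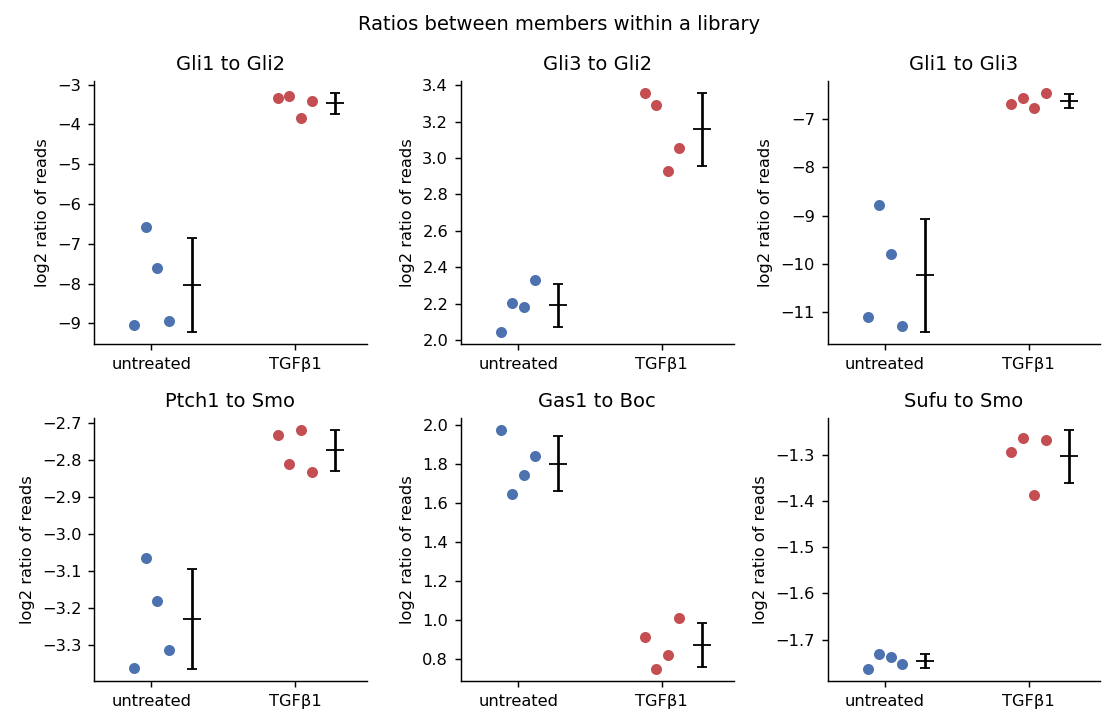
Log2 ratio of the reads of 2 pathway genes (0.5 added to each count) in each untreated (blue) and TGFβ1-treated (red) library, with mean and SD in black and a separate axis for each ratio. In all 6 ratios the groups lay apart, and Gas1 to Boc was the ratio that fell, by 0.93.

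The remaining genes of the pathway were taken from 4 lists. The ligand list held the 3 Hedgehog ligands and genes that modify or release them. Shh had no read in any library, and Ihh had 0 or 1 read per untreated and 1 to 5 per treated library, too few for the test. Dhh, the desert Hedgehog ligand, had 8, 7, 9 and 1 reads in untreated and 14, 19, 18 and 14 in treated libraries, with an estimate of 1.45 on the log2 scale (standard error 0.355, edgeR, FDR = 2.80e-05). Dhh too passed the filter through its treated libraries alone and so had to differ, and in the fit without the filter its log2 fold change was 1.42 (edgeR, FDR = 1.16e-04). Dhh was thus the only Hedgehog ligand with enough reads to be tested, and its level of 0.778 ± 0.172 CPM after TGFβ1 was close to that of Gli1 in treated libraries (0.617 ± 0.0662 CPM, SD, n = 4), a comparison of reads and not of transcripts per length.

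Scube3, whose secreted product helps to release ligands, rose from 4.39 ± 1.01 to 8.54 ± 1.04 CPM (SD, n = 4 per group; log2 fold change 0.96, FDR = 1.43e-10 from edgeR). Disp1, the transporter that exports the lipid-bearing ligands, rose by 0.26 on the log2 scale (FDR = 3.56e-05 from edgeR). Hhat, the enzyme that attaches palmitate to the ligands, fell by 0.20 (FDR = 0.0416 from edgeR), with overlapping groups. This call was lost in 5 of the 8 fits without a library (untreated 1, 2 or 3, treated 3 or 4). Scube2 had 2 to 11 reads and Scube1 at most 3 reads per library, and neither was tested. Of the 8 genes 4 were tested, 3 of them higher, Dhh included, and 1 lower, with a median log2 fold change of 0.61, beside 37.6% higher and 38.0% lower among all genes tested. As Dhh entered through the filter and only 4 genes were tested, nothing is read from this count or median.

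Of 31 receptors and signal transducers other than the 9 genes, 30 were tested, 8 were higher and 13 lower, with a median log2 fold change of -0.08. The share called, 21 of 30, was near the 75.6% of all genes. Gpc3, a glypican that binds Hedgehog ligand and keeps it from PTCH1, fell from 248 ± 12.9 to 17.8 ± 1.30 CPM (SD, n = 4 per group; log2 fold change -3.81, FDR under the smallest number the computer holds). Lrp2, a large endocytic receptor that takes up SHH, fell by 1.57 on the log2 scale (FDR = 2.05e-118 from edgeR). Csnk1a1, a kinase that phosphorylates GLI proteins, fell by 0.43, and Kif7, a ciliary kinesin that organizes GLI proteins and is named here after its value was seen, fell by 1.18. Among the higher genes were Smurf1, a ubiquitin ligase (1.08), Dyrk2, a kinase that acts on GLI2 (1.02), Rab23, a small GTPase that restrains the pathway (1.00), and Ulk3, a kinase of GLI proteins (0.81).

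Of 15 further genes known as targets of GLI factors, 12 were tested, 4 were higher and 4 lower, and the median log2 fold change was 0.11. The share called, 8 of 12, was near the 75.6% of all genes. The cyclins Ccnd2 (2.11) and Ccnd1 (1.17), the survival gene Bcl2 (1.04) and the transcription factor Snai1 (1.17) rose, by log2 fold changes as given. Foxm1 (-1.82), a regulator of mitotic genes, Sfrp1 (-1.77), a WNT antagonist, the growth factor Bmp4 (-1.35) and Mycn (-0.97) fell. Foxf1, Foxf2, Foxa2 and Ccne1 did not pass the threshold, with log2 fold changes between -0.15 and 0.13. All of these genes also answer to other pathways. Foxl1, named after its values were seen, did not pass the filter but had 3, 3, 2 and 1 reads in untreated and 12, 10, 13 and 18 reads in treated libraries. The ratio of its summed counts was 6.23, with an exact 95% interval of 3.05 to 14.4 that covers counting error only.

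All 40 genes of the primary cilium, the organelle through which SMO signals, were tested, with 7 higher, 21 lower and a median log2 fold change of -0.15. Their log2 fold changes ran from -0.93 to 1.19. Wdr35 (1.19) and Ift27 (1.01), both of the transport complexes of the cilium, Tctn1 (0.84) of the transition zone and Cep164 (0.70) of the basal body rose, by log2 fold changes as given. Dync2li1 (-0.93), a chain of the motor for return transport, Ift81 (-0.68), Ift57 (-0.63) and Ift74 (-0.60), all of the outward transport complex, fell. Of the 28 genes called, 21 were lower, and over all genes tested the calls were nearly balanced between directions (37.6% higher, 38.0% lower), a contrast that was not tested.

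**Figure D5:**
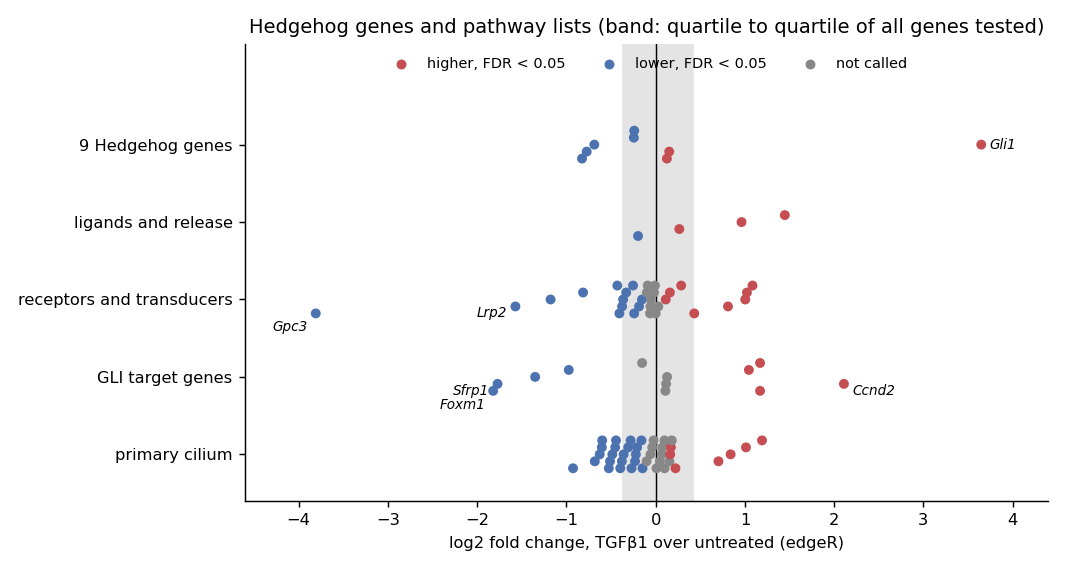
Log2 fold change (TGFβ1 over untreated, edgeR) of every tested gene of the 9 pathway genes and of 4 further lists, coloured by call (red higher, blue lower, grey not called), with the range between the quartiles of all genes tested as a grey band. Gli1 (3.65) and Gpc3 (-3.81) lay farthest out, and all lists had genes on both sides of 0.

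By the distance between profiles of log2 CPM over the 8 libraries, each centred on its mean, the tested gene nearest to Smo was Rbpms (distance 0.0928, Pearson r = 0.996), the gene nearest to Gas1 was Smtn (0.157, r = 0.992) and the gene nearest to Gli2 was Tmco6 (0.142, r = 0.994). These 8 points share 2 groups that differ in most genes, so the correlations describe the step between the groups.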

How the data were processed

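The authors sequenced stranded poly(A) libraries with single-end reads of 75 bases, aligned to GRCm38. The deposited values are raw read counts for each gene, without normalization. Per the labels, the submitters' processing notes name bcl2fastq 2.20.0.422, STAR 2.7.3a and featureCounts 1.5.1, and the annotation release and strand setting are not given in the sources used here. The pathway genes, lists and tests were chosen with earlier results of these data known.

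All genes entered one fit with edgeR 4.0.16 under R 4.3.3 (filterByExpr at default settings, TMM, estimateDisp, glmFit and glmLRT, the test the study names), with Benjamini-Hochberg FDRs over 13818 genes and a threshold of 0.05. Standard errors came from the Fisher information of the fit, and 95% intervals are normal intervals. Named genes were the 9 pathway genes, the ligands, and the 4 genes with the lowest FDR in each direction of each list, with up to 3 nearest profiles. A few genes stand in 2 lists, and some genes are not reported here. Positions, lengths and shared stretches of 75 bases came from GENCODE M21 (GRCm38). The fits were tested on simulated data with few changed genes, unlike these data, where 75.6% of the genes tested were called. The alternatives were edgeR's quasi-likelihood test, DESeq2 1.42.0, other scalings and filters, a prior count of 2, a replicate block, other pseudocounts and lengths, and each library left out. Libraries with the same number from 1 to 4 in the labels did not deviate together. Whether they were handled in pairs is not given in the sources used here.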

Additional observations from a re-analysis of the deposited data

How the results depend on the processing

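The calls of Smo, Gas1, Gli2, Ptch1 and Sufu, 5 genes lower, held in every fit. Gli1 passed the filter through its treated libraries alone, so its repeated calls there are no sign of stability, and without the filter its log2 fold change was 3.62 (FDR = 3.88e-12 from edgeR). The count of higher pathway genes was 3, and it was 1 with total counts as the scale and 1 without the filter on low counts. It ranged from 1 to 3 when single libraries were left out, with 1 without treated library 3, as Gli3 and Boc lost their calls. The log2 fold change of Gli3 (0.13) was 0.057 with total counts, 0.095 without the filter, 0.13 with the replicate block (FDR = 0.065 from edgeR) and 0.079 to 0.16 with libraries left out. That of Boc (0.15) was 0.084 with total counts, 0.12 without the filter and 0.10 to 0.18 with libraries left out. Hhat was the single lower gene of the ligand list, and the count was 0 with DESeq2, 0 with DESeq2 size factors in edgeR, 0 with the filter of 1 CPM, 0 with the replicate block and 0 to 1 with libraries left out. Without the filter 5 ligand genes were higher instead of 3, as more genes were tested. With the union of exons as length, 1 pair of genes changed places in treated libraries. The causes of the other changes were not tested.

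Same-numbered libraries did not deviate together (correlations of their deviations from the group means between -0.19 and -0.03), and no library correlated best with its own number. The replicate block gave 5075 higher and 5077 lower genes instead of 5198 and 5251, and changed no call of a pathway gene other than that of Gli3. With pairs the exact test of the ratios could not pass 0.05. The ratios with pairs and those with a library left out were compared by value only, and they kept their direction. Depth limited Gli1, Hhip, Shh and Ihh, with at most 18 reads in any library.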
